A study of Mus musculus with 12 samples.

Results

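Transcripts of the complement system were followed in the liver of female C57BL/6 mice given testosterone or the oil it was dissolved in. The set comprised 10 genes: the terminal components C6, Hc, C8a, C8b, C8g and C9, the early components C3, C2 and Cfb, and the complement regulator Susd4. Probe sets were taken by the gene symbol of the array's annotation. Of the 10 genes, 9 had exactly 1 probe set named for them alone, and all 9 were among the 7217 genes tested; C3 had none so named and is not analysed here. The members tested were therefore 6 terminal genes, 2 early genes and 1 regulator. RNA of 12 livers was hybridised to 1 Affymetrix array each, with 3 mice in each of 4 groups. Each dose was injected under the skin, 2 times per week for 3 weeks: testosterone mice received 0.9 mg testosterone, dissolved in sesame oil, and vehicle mice the oil alone, with a volume of 100 µl in both. One pair of groups was taken at the end of treatment. The other pair was taken after withdrawal, which lasted 12 weeks per the sample labels and 3 weeks per the series' design text, so its length is not settled. All mice were females of a single strain; the labels do not give their age or say whether the ovaries were intact, and male livers are not analysed here. Signals are linear array intensities, and a level is never compared between genes because each probe set has its own response.

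Complement is a cascade of plasma proteins, most of which are made by hepatocytes. The classical and lectin pathways use the serine protease C2, and the alternative pathway uses its homologue Cfb, to build the convertases that cleave C3 and then C5. Hc is the mouse gene for C5; its fragment C5b binds C6, C7 and C8, whose chains C8a, C8b and C8g encode, and then many copies of C9 to form the membrane attack complex. C6, C8a, C8b and C9 encode related pore-forming proteins, whereas C8g encodes a lipocalin. Susd4 encodes a protein with sushi domains, the fold of many complement regulators. Female mice are known to have less terminal complement activity in serum than males.

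Several members lie close together in the genome. C8a and C8b are neighbours on chromosome 4 with 0 protein-coding genes between them, as are C2 and Cfb on chromosome 17. C6 and C9 lie on chromosome 15 with 8 protein-coding genes between them, and Hc and C8g lie on chromosome 2 with 196 between them. The 250 bases before the start site are given for the 5 members called after withdrawal, so that the genes that moved together can be compared at their starts. They are from RefSeq on build GRCm38.p6, 5′ to 3′ on the gene's strand, and capitals mark motif matches. C6 lies at chr15:4726960-4727209 on the plus strand, C8a at chr4:104876399-104876648 on the minus strand, C8b at chr4:104766067-104766316 on the plus strand, C9 at chr15:6445096-6445345 on the plus strand, and the first of the Susd4 windows at chr1:182763966-182764215 on the plus strand.
C6: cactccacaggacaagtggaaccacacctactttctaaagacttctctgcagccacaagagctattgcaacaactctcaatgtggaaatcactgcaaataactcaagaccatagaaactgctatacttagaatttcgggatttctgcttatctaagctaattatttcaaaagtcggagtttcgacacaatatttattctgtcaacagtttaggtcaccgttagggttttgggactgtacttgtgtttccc
C8a: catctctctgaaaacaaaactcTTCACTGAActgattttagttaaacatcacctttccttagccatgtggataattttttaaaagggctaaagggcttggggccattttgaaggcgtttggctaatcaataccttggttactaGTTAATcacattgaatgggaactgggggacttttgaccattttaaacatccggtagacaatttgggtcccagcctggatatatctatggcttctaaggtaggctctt
C8b: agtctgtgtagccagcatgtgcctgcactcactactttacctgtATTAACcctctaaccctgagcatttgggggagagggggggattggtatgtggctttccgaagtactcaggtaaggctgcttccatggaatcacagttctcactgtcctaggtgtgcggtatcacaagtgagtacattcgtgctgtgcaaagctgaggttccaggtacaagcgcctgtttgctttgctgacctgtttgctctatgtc
C9: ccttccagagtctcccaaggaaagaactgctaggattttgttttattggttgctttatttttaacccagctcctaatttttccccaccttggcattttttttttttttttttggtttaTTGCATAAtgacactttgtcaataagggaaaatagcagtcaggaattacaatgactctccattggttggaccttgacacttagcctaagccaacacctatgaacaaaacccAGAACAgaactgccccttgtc
Susd4: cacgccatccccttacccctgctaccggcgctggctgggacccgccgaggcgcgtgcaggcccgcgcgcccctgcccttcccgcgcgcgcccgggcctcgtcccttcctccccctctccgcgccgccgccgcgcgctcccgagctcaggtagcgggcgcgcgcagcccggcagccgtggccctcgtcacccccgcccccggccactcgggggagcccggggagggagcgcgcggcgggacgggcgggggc

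Of the motifs searched, 1 occurred in more than one of these 5 windows, that of HNF1 in C8a and C8b. Both strands were searched for STAT5 (TTCNNNGAA, in 7.02% of the 32851 windows of this length in the table), C/EBP (TTNNGCAA, 9.56%), HNF1 (GTTAAT, 6.43%), HNF4 (CAAAGTCCA, 0.384%), the androgen receptor hexamer (AGAACA, 16.1%), NF-kB (GGANTTTCC, 1.07%) and a STAT3-type motif (TTCCNGGAA, 0.913%). The C8a window held TTCACTGAA at -228 and GTTAAT at -107, and the C8b window held the reverse complement of the latter, ATTAAC, at -206. The C9 window held a C/EBP match, TTGCATAA on the minus strand, at -132 and AGAACA at -21. The windows of C6 and Susd4 held 0 matches. Of members that were not called, Hc held ATTAAC at -74 and the second of the C8g windows held AGAACA at -151. Over the 5 printed windows the share of G and C ranged from 38.8% in C9 to 82.8% in Susd4. These matches are descriptions of the letters and not sites shown to be bound.

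**Figure D1:**
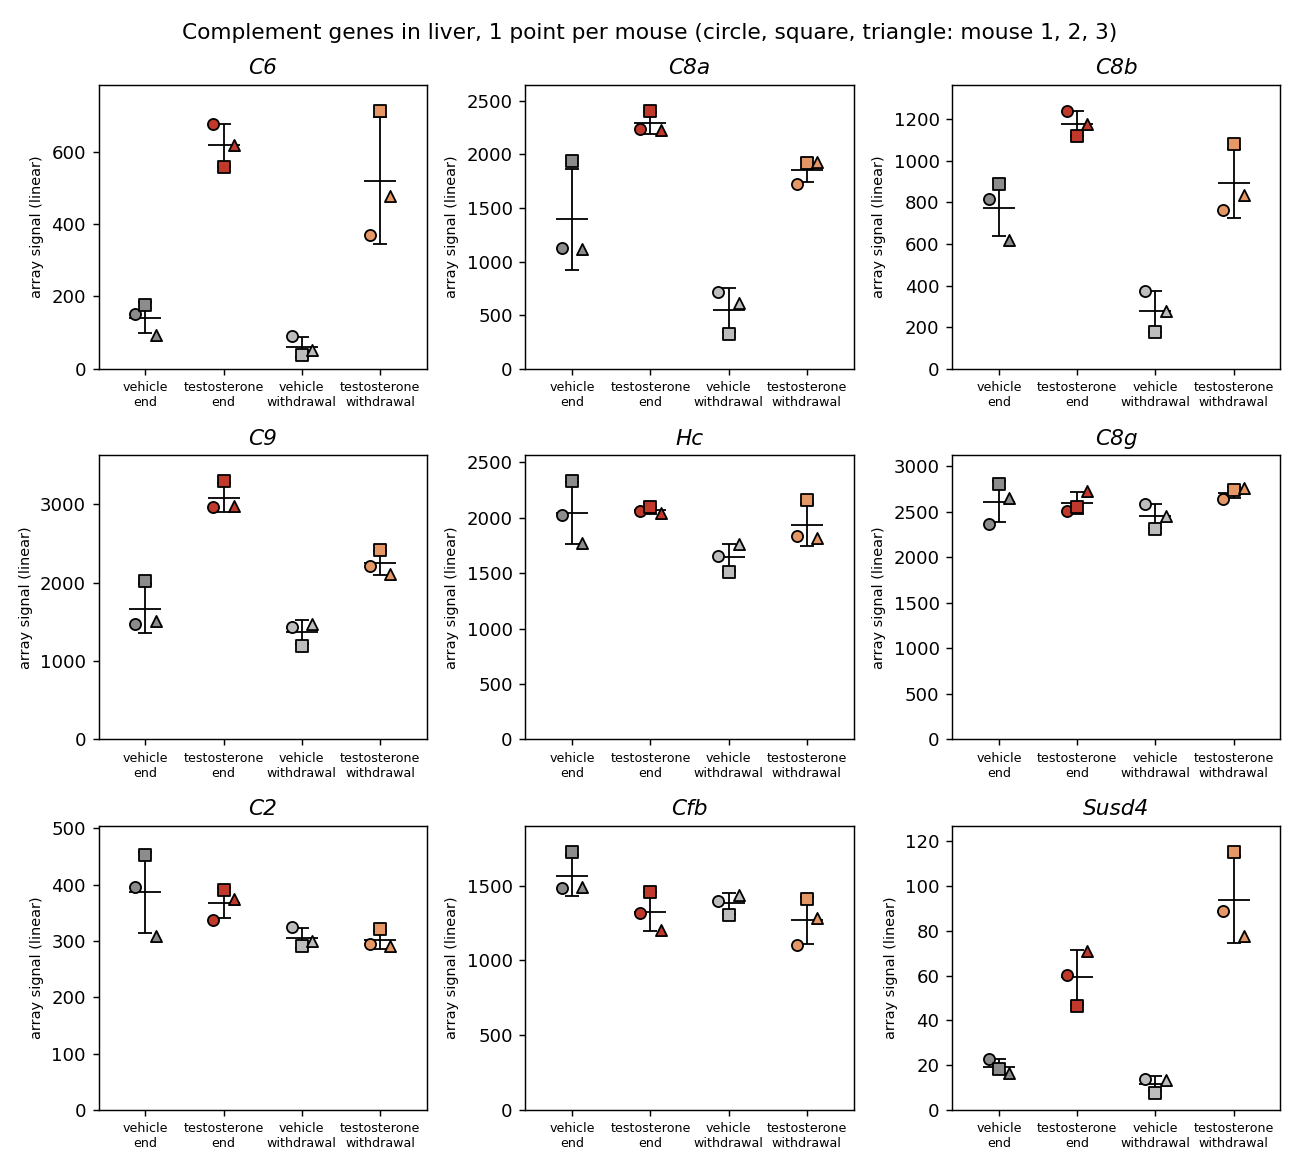
Linear array signal (y axis, from 0 and scaled per gene) of the 9 complement genes in each mouse of the 4 groups; circles, squares and triangles are mice 1, 2 and 3, and bars give the mean and SD of 3 mice. C6, C8a, C8b, C9 and Susd4 lie higher in testosterone than in vehicle mice at both times, whereas C8g, C2 and Hc at the end overlap.

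At the end of treatment the terminal genes did not move as a unit. Of the 9 members, 4 rose (C6, C8a, C9 and Susd4), 0 fell and 5 were not called by limma at an adjusted p under 0.05; at an unadjusted p under 0.05 these counts were 5 higher and 1 lower. Among all genes tested 9.42% were called higher, 8.01% lower and 17.4% in either direction. The median log2 change was 0.69 over the 6 terminal genes, -0.15 over the 2 early genes and 0.04 over all genes tested.

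C6, the component that joins C5b first, changed most. Its signal was 152, 176 and 93.3 in the 3 vehicle mice and 676, 556 and 619 in the 3 testosterone mice. Every testosterone mouse was above every vehicle mouse. The group means were 141 ± 42.7 and 617 ± 60.0 (SD, n = 3), a rise of 2.18 on the log2 scale (SE 0.29, limma adjusted p = 0.000159) or 4.53-fold, with a 95% interval of 1.56 to 2.80 on the log2 scale. It was the 15th steepest rise of the 7217 genes.

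C9, which polymerises into the wall of the pore, had signals of 1469, 2024 and 1511 in vehicle mice and 2973, 3296 and 2981 in testosterone mice. The groups did not overlap. The rise was 0.90 on the log2 scale (SE 0.11, limma adjusted p = 0.000111), or 1.87-fold.

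The 3 chains of C8 differed from each other. C8a, the chain that inserts into the membrane, had 1129, 1939 and 1119.9 in vehicle mice and 2239, 2408 and 2232 in testosterone mice. All 3 testosterone mice were above vehicle mouse 2, the highest of its group. The rise was 0.76 (SE 0.24, limma adjusted p = 0.0391), or 1.70-fold. Its call, more than its size, depended on single mice: the call was lost when any one of 5 of the 6 mice was left out. Without vehicle mouse 1 the rise was 0.64 (adjusted p = 0.134), and without vehicle mouse 3 it was 0.63 (0.119). Without testosterone mouse 1, 2 or 3 it was 0.78 (0.0849), 0.73 (0.108) and 0.78 (0.0768). Without vehicle mouse 2 it was 1.03 and was called (0.00940).

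C8b, the chain that binds the C5b-6-7 complex, had 816, 889 and 621 in vehicle mice and 1241, 1118 and 1178 in testosterone mice. The groups did not overlap, but the change of 0.62 (SE 0.21, 95% interval 0.17 to 1.07, limma adjusted p = 0.0552) was not called. C8g, the lipocalin chain, had 2369, 2812 and 2656 against 2514, 2551 and 2735. These values interleaved, and the log2 difference was -0.0043 (95% interval -0.16 to 0.15, limma adjusted p = 0.976).

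Hc, whose product C5 starts the terminal pathway, had 2021, 2330 and 1775 in vehicle mice and 2057, 2101 and 2043 in testosterone mice, all 3 of the latter inside the vehicle range. Its difference was 0.03 on the log2 scale (95% interval -0.18 to 0.24, limma adjusted p = 0.884).

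The early proteases C2 and Cfb were not called either. C2 had 396, 453 and 309 in vehicle mice and 338, 390.3 and 374 in testosterone mice, which lay inside the vehicle range, with a log2 difference of -0.06 (95% interval -0.32 to 0.21, limma adjusted p = 0.790). Cfb had 1481, 1726 and 1492 against 1318, 1458 and 1200.04. All 3 testosterone mice were lower than all vehicle mice, and the difference of -0.24 had a 95% interval of -0.46 to -0.03 and a limma adjusted p = 0.113.

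Susd4 was dim in vehicle mice, at 22.9, 18.3 and 16.3, close to the array medians of 20.1 to 22.6. It had 60.2, 46.4 and 70.8 in testosterone mice, and the groups did not overlap. The rise was 1.62 on the log2 scale (SE 0.25, limma adjusted p = 0.000455). No fold is given for this gene, since detection calls are not analysed here and its vehicle signals lie near or under the medians. Its signal lay above the array's median in 1 of 3 vehicle and 3 of 3 testosterone mice here, and in 0 and 3 after withdrawal, so Susd4 passed the signal filter through the testosterone mice; the other 8 members were above the median on all 12 arrays. On log2(signal + 16), which damps dim signals, its rise was 1.09 at the end and 1.99 after withdrawal, called both times.

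The groups at the end of treatment did not overlap in 6 of the 9 members, 5 higher and 1 lower, against 35.7% of all genes tested. RNA quality also separated these groups. Control probe sets give 3′ to 5′ ratios that rise when RNA is degraded or copied short. That of beta-actin ran from 1.44 to 1.64 in vehicle and from 2.03 to 2.19 in testosterone mice. That of pyruvate carboxylase ran from 4.57 to 7.20 and from 17.3 to 21.9. That of Gapdh ran from 0.735 to 0.798 and from 0.908 to 0.958. None of these overlapped between the groups. With the actin ratio in the fit C6 was still called (2.97, limma adjusted p = 0.0224). C8a (0.83, adjusted p = 0.585), C9 (0.70, 0.234) and Susd4 (1.79, 0.158) were not. Their values without the ratio were 0.76, 0.90 and 1.62. Calls among all 7217 genes fell from 1258 to 78 with the ratio, so a lost call was not particular to these members. Since the ratio did not overlap between the groups, RNA quality and treatment cannot be told apart in that fit. The part of RNA quality in these results was not tested.

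After withdrawal 5 members were higher in testosterone than in vehicle mice: C6, C8a, C8b, C9 and Susd4. By limma 0 were lower and 4 were not called; at an unadjusted p under 0.05, 6 were higher and 0 lower. Among all genes 2.74% were called higher and 3.26% lower, and with arrays centred on their medians the whole-table calls changed from 198 higher and 235 lower to 265 and 167. The median log2 change was 1.23 over the terminal genes, -0.07 over the early genes and -0.04 over all genes. The groups did not overlap in 7 members, all higher in testosterone mice, against 25.9% of all genes.

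For C6 the vehicle mice had 90.4, 38.6 and 52.2 and the testosterone mice 369, 713 and 477. Testosterone mouse 2 was the highest and vehicle mouse 2 the lowest of the 6. The rise was 3.14 on the log2 scale (SE 0.29, limma adjusted p = 5.48e-06), or 8.84-fold, the 8th steepest of all genes.

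Susd4 had 13.7, 7.71 and 13.4 in vehicle mice and 88.6, 115 and 77.8 in testosterone mice, which did not overlap. Its rise was 3.04 (SE 0.25, limma adjusted p = 1.17e-06) on log2 signal and 1.99 on log2(signal + 16). All 3 vehicle signals lay under their array's median, so the size of the rise depends on the scale.

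Both pore-forming chains of C8 were called at this time. C8a had 715, 321 and 613 in vehicle mice and 1728, 1922 and 1925 in testosterone mice, a rise of 1.84 (SE 0.24, limma adjusted p = 0.000188) or 3.57-fold. C8b had 375, 178 and 278 against 762, 1079.8 and 834, a rise of 1.74 (SE 0.21, limma adjusted p = 9.38e-05) or 3.33-fold. Neither gene's groups overlapped, and in both the lowest mouse was vehicle mouse 2. C8g had 2584, 2317 and 2460 in vehicle mice and 2639, 2738 and 2758 in testosterone mice. Its groups did not overlap either, but the difference was 0.15 on the log2 scale (95% interval -0.01 to 0.30, limma adjusted p = 0.281).

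C9 had 1437, 1191 and 1470 in vehicle mice and 2219, 2416 and 2111 in testosterone mice, a rise of 0.72 (SE 0.11, limma adjusted p = 0.00115) or 1.65-fold, with no overlap. Hc had 1652, 1513 and 1761 against 1834, 2158 and 1815. All 3 testosterone mice were higher, and the difference of 0.24 had a 95% interval of 0.03 to 0.45 and a limma adjusted p = 0.183.

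For the early genes the mice of both treatments overlapped. C2 had 325, 291 and 301 in vehicle mice and 294, 321 and 291 in testosterone mice (log2 difference -0.02, 95% interval -0.28 to 0.25, limma adjusted p = 0.953). Cfb had 1398, 1304 and 1438 against 1103, 1411 and 1285 (-0.13, 95% interval -0.35 to 0.09, limma adjusted p = 0.495).

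The actin ratio overlapped at this time, from 1.60 to 1.89 in vehicle and from 1.47 to 1.82 in testosterone mice. With it in the fit all 5 calls were kept, at 2.92 for C6, 1.82 for C8a, 1.60 for C8b, 0.78 for C9 and 2.99 for Susd4. All 5 calls also held without each single mouse. The exocrine pancreas gene Cpa1 was at 40.3, 138 and 0.472 in the testosterone mice after withdrawal and at most 2.22 in every other mouse. In these 3 mice, in the same order, C6 was at 369, 713 and 477 and Susd4 at 88.6, 115 and 77.8. C8a was at 1728, 1922 and 1925, C8b at 762, 1079.8 and 834, and C9 at 2219, 2416 and 2111. The part of pancreas tissue in these values was not tested.

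**Figure D2:**
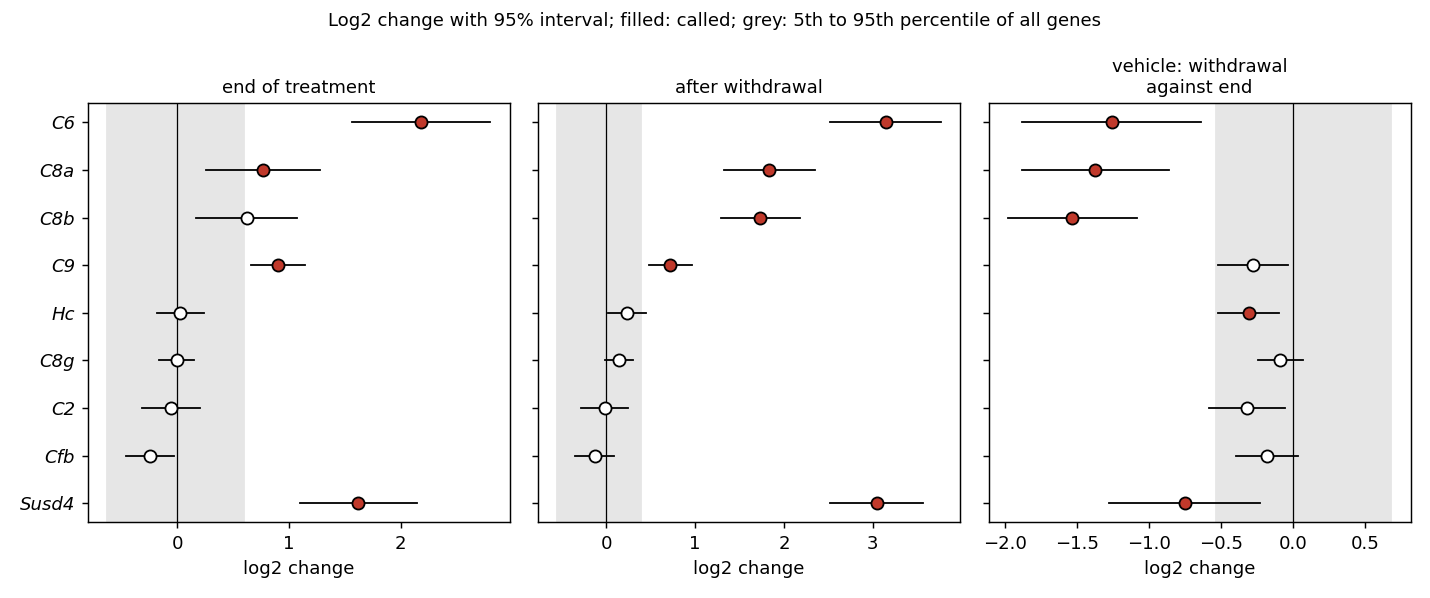
Log2 change with its 95% interval (x axis, whose range differs between panels) for each of the 9 complement genes: testosterone against vehicle at the end and after withdrawal, and vehicle mice after withdrawal against the end. Filled points are called at an adjusted p under 0.05, and the grey band spans the 5th to 95th percentile of all genes. The interval of C6 after withdrawal runs from 2.52 to 3.76, and those of C2 and Cfb at that time include 0.

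The difference between the treatment effects of both times was tested as an interaction. It was called for 1 of 9 members by limma, against 2.19% of all genes; at an unadjusted p under 0.05, 4 were higher and 0 lower. Susd4 was called, with an effect larger after withdrawal by 1.42 on the log2 scale (SE 0.35, limma adjusted p = 0.0464). This call was lost without any one of 9 of the 12 mice, where the value ran from 1.15 without vehicle mouse 2 after withdrawal to 1.56 without testosterone mouse 3 at the end. It was also lost with the actin ratio in the fit (1.20, adjusted p = 0.965). In that fit 1 of all 7217 genes was called, against 158 without the ratio. On log2(signal + 16) the difference was 0.90 (adjusted p = 0.0432). C8b differed by 1.12 (SE 0.30, limma adjusted p = 0.0600) and C8a by 1.07 (SE 0.34, limma adjusted p = 0.0967), neither called. Without vehicle mouse 1 after withdrawal both were called, C8b at 1.37 (adjusted p = 0.0148) and C8a at 1.30 (0.0391). C8b was also called without vehicle mouse 3 at the end (1.27, 0.0383) and without testosterone mouse 1 after withdrawal (1.22, 0.0371). C6 differed by 0.96 (SE 0.41, limma adjusted p = 0.185), and C9 by -0.18 (limma adjusted p = 0.562).

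The vehicle groups themselves differed between the times, and they are the baseline of both treatment comparisons. In vehicle mice 5 of 9 members were lower after withdrawal than at the end: C6, C8a, C8b, Hc and Susd4. By limma 0 were higher; at an unadjusted p under 0.05, 7 were lower and 0 higher. Among all genes 6.83% were called lower. The median log2 change was -0.78 over the terminal genes and 0.06 over all genes. With arrays centred on their medians the whole-table calls changed from 795 higher and 493 lower to 475 and 710. The median over all genes was then -0.045. C8b fell by 1.53 on the log2 scale (SE 0.21, limma adjusted p = 0.000351), or 2.90-fold. C8a fell by 1.37 (SE 0.24, limma adjusted p = 0.00174), or 2.59-fold. C6 fell by 1.26 (SE 0.29, limma adjusted p = 0.00962), or 2.39-fold, and was not called without vehicle mouse 2 after withdrawal (-0.98, adjusted p = 0.0504). With the actin ratio in the fit C8a (-1.34) and C8b (-1.32) were still called, and C6 was not (-0.90, adjusted p = 0.189). In that fit 232 of all genes were called, against 1288 without it. The actin ratio was 1.44 to 1.64 at the end and 1.60 to 1.89 after withdrawal. The pyruvate carboxylase control gave 3′ to 5′ ratios of 4.57 to 7.20 and 9.03 to 17.0, which did not overlap. That of Gapdh was 0.735 to 0.798 and 0.742 to 0.838. The part of RNA quality in these falls was not otherwise tested.

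Hc fell by 0.31 (SE 0.10, limma adjusted p = 0.0424), a call lost without any one of 5 of the 6 vehicle mice, with values from -0.36 to -0.21. Susd4 fell by 0.75 (SE 0.25, limma adjusted p = 0.0460), a call lost without mouse 1 (-0.62) or 2 (-0.78) at the end or mouse 2 (-0.48) or 3 (-0.88) after withdrawal. On log2(signal + 16) its change was -0.35 and was not called (adjusted p = 0.124). C9 (-0.28, limma adjusted p = 0.106), C2 (-0.32, 0.0846), Cfb (-0.18, 0.233) and C8g (-0.09, 0.435) were not called; C2 was called without vehicle mouse 3 at the end (-0.47, 0.0118).

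In testosterone mice C9 was the 1 member of 9 called between the times, near the share of 10.9% of all genes in either direction. It fell by 0.46 (SE 0.11, limma adjusted p = 0.0197), and it was not called without testosterone mouse 2 at the end (-0.41, adjusted p = 0.0788) or mouse 3 after withdrawal (-0.41, 0.0779). The actin ratio separated these groups too, at 2.03 to 2.19 at the end and 1.47 to 1.82 after withdrawal. So did those of pyruvate carboxylase (17.3 to 21.9 and 9.33 to 15.3) and Gapdh (0.908 to 0.958 and 0.787 to 0.879). With the actin ratio in the fit the change of C9 was -0.29 and was not called (adjusted p = 0.563). Since the ratio did not overlap, that fit cannot tell RNA quality from time. In that fit 110 of all 7217 genes were called, against 785 without the ratio. C6 differed by -0.30 (limma adjusted p = 0.570), C8a by -0.30 (0.460), C8b by -0.42 (0.226) and Susd4 by 0.67 (0.0977). Age, harvest and the time since the last injection cannot be told apart in these comparisons between times.

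Terminal and early genes were then set against each other within each mouse. For each gene the log2 signal was taken relative to the mean of the vehicle mice at the end, and the mean of the 2 early genes was subtracted from that of the 6 terminal genes. The difference was -0.04, 0.09 and -0.05 in the vehicle mice at the end and 0.97, 0.77 and 0.95 in the testosterone mice at the end. After withdrawal it was -0.31, -0.85 and -0.51 in vehicle mice and 0.79, 0.88 and 0.79 in testosterone mice. The 6 testosterone mice were thus all above the 6 vehicle mice. Testosterone minus vehicle was 0.90 at the end and 1.38 after withdrawal, given as a description because the members were chosen with earlier results known.

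**Figure D3:**
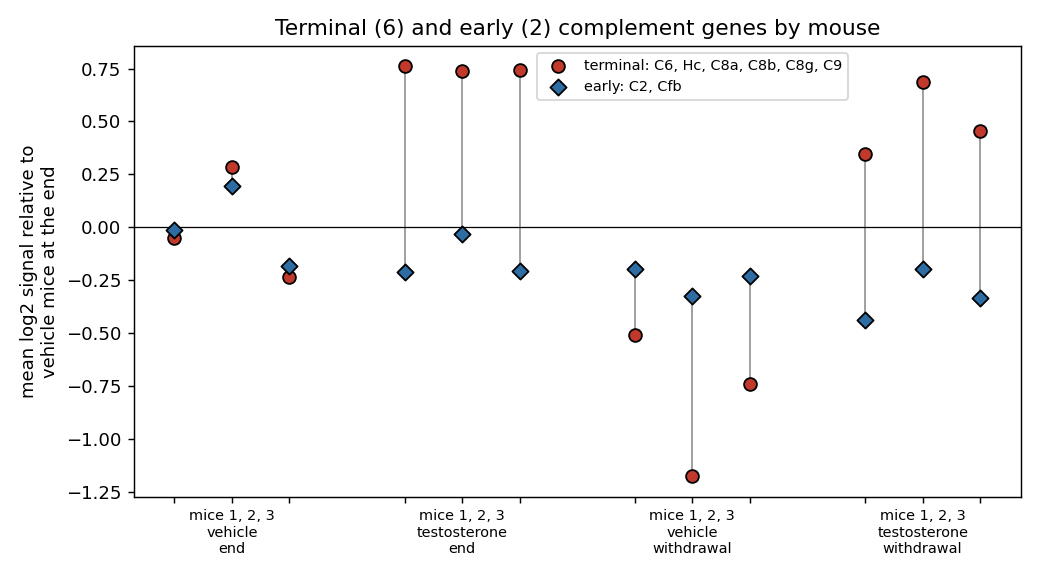
Mean log2 signal (y axis, relative to the vehicle mice at the end of treatment) of the 6 terminal genes (circles) and the 2 early genes (diamonds) in each of the 12 mice, in their 4 groups; the grey line joins both means of a mouse. The early mean stays between -0.44 and 0.20, while the terminal mean runs from -1.18 in vehicle mouse 2 after withdrawal to 0.76 in testosterone mouse 1 at the end.

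The terminal mean was 0.76, 0.74 and 0.74 in the testosterone mice at the end and 0.35, 0.68 and 0.45 after withdrawal. In the vehicle mice after withdrawal it was -0.51, -1.18 and -0.74. The group means of the terminal genes were thus lower after withdrawal than at the end in both treatments, at 0.50 against 0.75 in testosterone mice and at -0.81 in vehicle mice, whose mean at the end is 0 by construction. The early mean ranged only from -0.44 to 0.20 over all mice.

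Single mice shifted most members together. Vehicle mouse 2 at the end was the highest of its group in 8 of 9 members, Susd4 being the exception. The same mouse had 5042 of the acute phase gene Saa1, against 379 and 247 in the other vehicle mice at the end. The mean log2 signal of 18 acute phase genes, relative to vehicle mice at the end, separated the treatments. At the end it was -0.66 to 0.97 in vehicle and -1.58 to -1.46 in testosterone mice. After withdrawal it was -0.75 to -0.43 and -1.37 to -1.19. By limma 8 of the 18 were called lower at the end and 3 after withdrawal, and 0 higher. Among all genes 8.01% and 3.26% were called lower. The part of the acute phase was not tested. Vehicle mouse 2 after withdrawal was the lowest of its group in 9 of 9 members, and testosterone mouse 2 after withdrawal was the highest in 7. The groups' summed signal of 8 hepatocyte markers overlapped at the end, with 31006 to 32863 in vehicle and 31953 to 32892 in testosterone mice. After withdrawal it was 30511 to 33791 and 32834 to 38660, which overlap, with group means of 31984 and 36126. By limma 1 of the 8 was called higher at the end and 2 after withdrawal, and 0 lower. Among all genes 9.42% and 2.74% were called higher. In whole liver, fewer cells of a type and less RNA per cell cannot be told apart.

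The other complement genes of the liver were taken from a list. Of 47 further components, regulators and receptors listed, 33 had a probe set of their own and 26 were tested. C7, the terminal component that binds between C6 and C8, is not analysed here. At the end of treatment 0 of the 26 rose, 11 fell and 15 were not called by limma (0 higher and 14 lower at an unadjusted p under 0.05), with a median log2 change of -0.24; among all genes 9.42% were called higher and 8.01% lower. After withdrawal 0 rose, 1 fell and 25 were not called (0 and 2 at an unadjusted p under 0.05), with a median of -0.0003; among all genes 2.74% were called higher and 3.26% lower, so 1 of 26 lies near that share.

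By role, the genes that fell at the end were 4 of 5 in the classical pathway, 2 of 5 in the lectin pathway, 1 of 1 in the alternative pathway, 1 of 9 soluble regulators, 1 of 3 membrane regulators and 2 of 3 receptors. C1qb, a chain of the C1q recognition molecule, had 569, 523 and 349.9 in vehicle mice and 218, 231 and 206 in testosterone mice, with no overlap, a fall of 1.11 on the log2 scale (SE 0.23, limma adjusted p = 0.00430). Its other probe sets gave 177 against 167 and 267 against 169 as group means. The sister chains C1qa and C1qc fell by 0.81 and 0.84 (limma adjusted p = 0.0125 and 0.0180).

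Properdin (Cfp), which stabilises the alternative convertase, had 315, 275 and 194 against 123, 155 and 126 and fell by 0.93 (limma adjusted p = 0.0135). The complement receptor Vsig4 of Kupffer cells fell by 0.89 (limma adjusted p = 0.0214), the integrin chain Itgb2 by 0.84 (0.0273) and the ficolin Fcna by 0.73 (0.00475). Smaller falls were found in the protease C1s1 (-0.31, limma adjusted p = 0.00884), the carboxypeptidase chain Cpn1 (-0.31, 0.0295), the mannose-binding lectin Mbl2 (-0.29, 0.0321) and the inhibitor of the membrane attack complex Cd59a (-0.29, 0.0258). The probe set tested for Cd59a had group means of 377 and 308. Its other probe set showed a larger fall, with group means of 311 and 190.

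C1q, properdin, Fcna, Vsig4 and Itgb2 are made largely by macrophages and other myeloid cells. The summed signal of the 11 macrophage markers tested of 12 listed was 2996 to 4694 in vehicle and 2391 to 2854 in testosterone mice at the end, without overlap. Brighter markers weigh more in this sum. One by one, 3 of the 11 were called lower at the end, 0 higher and 8 were not called by limma, where 8.01% of all genes were called lower. After withdrawal the summed signal was 1619 to 2737 and 1772 to 2080, which overlap. C1qb, Cfp and Vsig4 were also lower in vehicle mice after withdrawal than at the end, with log2 changes of -1.26, -1.15 and -1.13. The part of macrophage number in these values was not tested.

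After withdrawal the 1 gene called was Cd55, a membrane protein that speeds the decay of convertases. It had 44.8, 46.0 and 39.9 in vehicle mice and 28.2, 24.1 and 20.7 in testosterone mice, a fall of 0.85 (SE 0.22, limma adjusted p = 0.0286). Its other probe set did not show a like difference, with group means of 19.9 and 18.1.

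**Figure D4:**
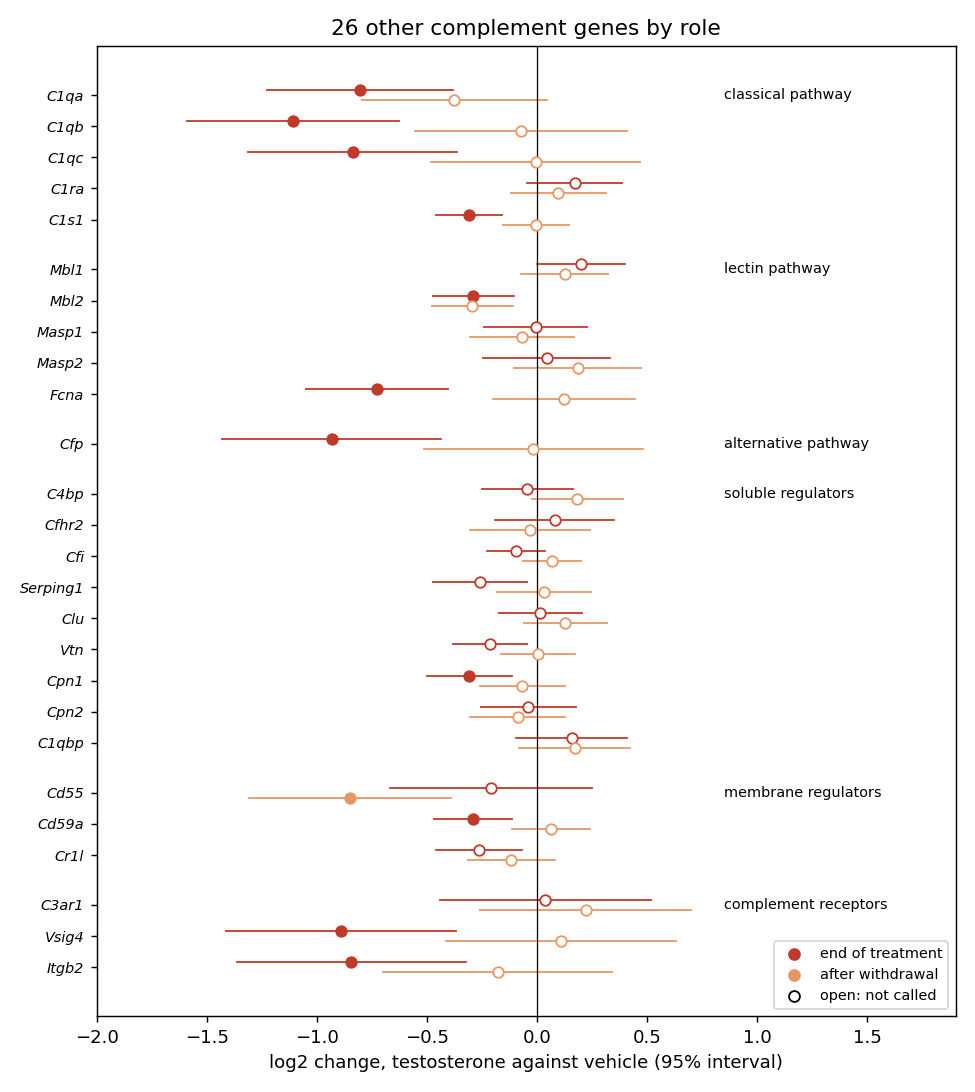
Log2 change of testosterone against vehicle with its 95% interval (x axis) for 26 further complement genes grouped by role, at the end of treatment and after withdrawal; filled points are called at an adjusted p under 0.05. The 11 filled points at the end and the 1 after withdrawal, Cd55, all lie below 0.

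The genes most like 3 of the members over the 12 mice were named by Pearson correlation of log2 signal, as a description across samples that fall into groups and with no p. For Susd4 they were Keg1 (0.976), Cyp7b1 (0.943), Elovl3 (0.939), Cela1 (0.934) and Manf (0.933). For C6 they were Cyp7b1 (0.984), Keg1 (0.978), Hprt (0.972), Aox3 (0.971) and Cyp2d9 (0.969). Cyp7b1, an oxysterol hydroxylase, and Keg1 stood on both lists; Elovl3 and Cyp2d9 were among the 4 male-biased control genes, all of which rose at both times. For C9 they were Mindy3 (0.979), H2az1 (0.975), Hsd3b2 (0.960), Hao1 (0.956) and C1galt1c1 (0.955), none of which stood on the other lists.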

How the data were processed

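Liver RNA of 12 mice was hybridised to 1 array per mouse. The authors deposited linear array intensities, 1 signal per probe set, made with GCOS and MAS5 per the submitters' processing notes, which give no version. The 2% trimmed mean was 100.05 on each array, so the deposited scaling was kept. Array medians ran from 20.1 to 22.6, and the number of arrays limits the precision. Each replicate was an individual mouse, as the series' design text states.

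Of 22690 probe sets, 64 were controls; of the other 22626, 20380 had 1 gene symbol in the platform annotation, 691 several and 1555 none, and only the first kind was used. Signals under 4.84, the 25th percentile, were set to it before log2. Each of 12393 genes was represented by its probe set with the highest mean, and 7217 genes above the array median on at least 3 of 12 arrays were tested. Folds are ratios of geometric means, whereas means ± SD are of deposited signals.

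limma 3.58.1 in R 4.3.3 (lmFit, eBayes with a variance trend) was fitted on 4 group means over all 12 arrays, two-sided, with Benjamini-Hochberg adjustment over all genes and calls at an adjusted p under 0.05. The code was tested on simulated data. Symbols were updated through Entrez IDs to RefSeq. Named genes were all members, every further complement gene called in a treatment comparison, and the 5 genes most correlated with Susd4, C6 and C9. Members, lists and tests were chosen with earlier results of these data known. Alternatives were other offsets, filters, scalings, probe set rules, sample sets, a replicate block, the actin ratio as a covariate, and leaving out each mouse. A filter on the mean over all 12 arrays was added after seeing the data. C3 and C7 were not analysed here.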

Additional observations from a re-analysis of the deposited data

Results flagged for a closer look

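Susd4 differed between the times: the effect of testosterone on its log2 signal was 1.42 larger after withdrawal than at the end of treatment (SE 0.35, limma adjusted p = 0.0464, interaction test). The change was 1.62 at the end and 3.04 after withdrawal. Susd4 passed the signal filter through the testosterone mice, and 0 vehicle mice after withdrawal were above their array's median. Between the times its log2 signal changed by -0.75 in vehicle mice and by 0.67 in testosterone mice. The call was lost with no filter on low signals (adjusted p = 0.149), with no variance trend (0.0717), with the replicate block (0.0750), with the actin ratio in the fit (1.20, adjusted p = 0.965) and without any one of 9 of the 12 mice. On log2(signal + 16) the difference was 0.90 (adjusted p = 0.0432).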

How the results depend on the processing

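The count of members called after withdrawal was 5 under each alternative except unique probe sets alone, where it was 4 because C8b was not tested. At the end of treatment it was 3 to 5, except 1 with the actin ratio as a covariate. For the difference between times the count was 1; it was 0 with no filter, with no variance trend, with the replicate block and with the actin ratio, 2 with every probe set tested, and 0 to 3 without single mice. For vehicle mice between times it was 5, then 4 on log2(signal + 16), where Susd4 was lost, 6 with median centring, where C2 was gained (-0.42, adjusted p = 0.0416), 4 with unique probe sets alone, 2 with no filter or with the actin ratio, 3 with no variance trend, with the 2 groups alone or with the replicate block, and 2 to 6 without single mice. For testosterone mice between times it was 1, then 0 with no filter, no variance trend or the actin ratio, 2 on log2(signal + 16), 3 with the 2 groups alone, and 0 to 1 without single mice. The terminal minus early difference at the end was 1.12 with unique probe sets alone, which leave out C8b and C8g. Causes were not tested otherwise.

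Reversed values were all of uncalled changes. C8g at the end was 0.026 with median centring and 0.0094 with quantile normalization, and -0.0087 between times in testosterone mice with quantile normalization. With the actin ratio Hc at the end was -0.086, C2 after withdrawal 0.0089, and the differences between times -0.044 for C6, 0.084 for C9 and -0.038 for Cfb; C2 after withdrawal was 0.068 with median centring. Without single mice the ranges were -0.21 to 0.067 for C2 at the end, -0.073 to 0.051 for C8g at the end, -0.070 to 0.13 for Hc at the end, -0.062 to 0.029 for C2 after withdrawal, -0.084 to 0.19 for the C2 difference and -0.15 to 0.028 for Cfb in testosterone mice.

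The replicate numbers of the titles did not pair the mice: same-numbered mice had correlations of deviations from -0.081 to -0.0024, and no mouse correlated best with its own number. With the replicate block C8a at the end was not called (adjusted p = 0.0633). Dim signals limit Susd4 in vehicle mice most.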
